A study of Mus musculus with 33 samples.

Results

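H3K27me3, the trimethyl mark on lysine 27 of histone H3, was compared between Dlx1/2-/- (knockout, KO) and wild-type (WT) ganglionic eminences of CD1 mouse embryos at e13.5, from the peak lists of 1 ChIP-seq library per genotype. These are 2 of the 33 samples of the series, and only chromosomes 1 to 19 were used. The same tissue was profiled for H3K27ac, H3K4me3 and H3K4me1 with 1 library per mark and genotype, for binding of the homeodomain factors DLX1, DLX2 and DLX5 at e13.5, and for RNA in 4 KO and 4 WT embryos. The knockout removes both Dlx1 and Dlx2, the labels name no driver or conditional allele, and they do not say how many embryos went into a chromatin library. In this bulk tissue, fewer cells with a mark and less mark per cell cannot be told apart.

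H3K27me3 is written by Polycomb repressive complex 2 (PRC2), whose catalytic subunit is EZH2 or EZH1, and is read by Polycomb repressive complex 1. In the embryonic brain it lies over silent developmental regulators, often in broad domains, and many of these promoters also carry H3K4me3. H3K27ac sits on the same lysine and marks active promoters and enhancers, so a single histone tail carries one or the other. DLX1 and DLX2 are needed in the ganglionic eminences for the differentiation of GABAergic neurons.

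The X chromosome shows why autosomes alone were compared. It carried 2594 listed H3K27me3 peaks in KO and 14157 in WT, and 4671 of the 5117 regions that the authors' deposited table gives as higher in WT lie there. The Y chromosome carried 33 listed peaks in KO and 0 in WT. The labels do not give the sex of the embryos behind the chromatin libraries, so genotype and sex cannot be told apart on these chromosomes.

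On the autosomes the KO list held more and weaker ground than the WT list. It held 228526 peaks over 435 Mb, against 178037 peaks over 311 Mb in WT, a ratio of 1.401 in covered bases. The lowest fold enrichment over input in the list was 1.503 in KO and 1.696 in WT, so the KO list reaches further down. Among strong peaks, those with a −log10 q of at least 5, KO had 8054 over 71.0 Mb and WT had 8741 over 61.4 Mb, a ratio of 1.16 in bases. Strong peaks were wider and lower in KO, with a median width of 4638.5 bp and a median fold of 4.57, against 3189 bp and 4.87 in WT. Restricting the KO list to peaks at or above the lowest WT fold left 124074 peaks and a ratio of 1.09 in bases. The lists do not give the sequencing depth behind them, and both the number and the width of broad peaks move with depth. With 1 library per genotype no difference below has a replicate check, and none was tested.

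No strong H3K27me3 domain belonged to one genotype alone when listed peaks of any strength counted. Peaks of both lists were merged over gaps of up to 1000 bp into 214097 domains, of which 9426 held a strong peak in KO, in WT or in both. Of these strong domains, 0 were KO-only and 0 were WT-only when a peak of any strength in the other genotype counted as present. The H3K27me3 lists reach down to a −log10 q of 0 in KO and 0.104 in WT, so even a very weak peak counted. Few one-sided domains can arise under this rule. By the same rule H3K27ac had 0 KO-only and 0 WT-only, H3K4me3 5 and 4, and H3K4me1 3 and 12. In 7018 of the 9426 H3K27me3 domains (74.5%) the peak was strong in both genotypes. A further 907 (9.62%) were strong in KO and weak in WT, with a median fold of 3.96 in KO and 3.66 in WT. The remaining 1501 (15.9%) were strong in WT and weak in KO, with a median fold of 3.37 in KO and 4.27 in WT. These 2 classes therefore lie mostly beside the threshold rather than at the extremes of the mark. The median −log10 q was 5.78 in KO and 4.34 in WT for domains strong in KO only. For those strong in WT only it was 4.16 in KO and 5.96 in WT. Over the whole lists, the peak values nearest the threshold were 5.001 and 4.9996 in KO, and 5.0001 and 4.9999 in WT.

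Domains found in one list alone were weak. There were 79046 such domains in KO, covering 57.7 Mb, and 22090 in WT, covering 12.4 Mb. The highest −log10 q among them was 3.71 in KO and 3.42 in WT, and the highest fold was 3.36 in KO and 3.45 in WT. At a −log10 q of at least 2, 33 KO-only and 26 WT-only domains remained. The excess of KO-only domains thus sits at the weak end of the list, where the KO list also has its lower floor.

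At the 9426 shared strong domains the mark was slightly lower and slightly wider in KO. The listed fold of a peak is its mean over the peak, and a domain was given that of its strongest peak. This highest fold enrichment had a median log2 KO/WT of -0.11 (quartiles -0.25 and 0.00), a ratio of 0.923, and was above 0 in 25.8% of domains. Bases covered by listed peaks had a median log2 KO/WT of 0.13 (quartiles 0.01 and 0.33), a ratio of 1.10, and were above 0 in 77.0% of domains. Over all shared strong domains the covered length came to 90.8 Mb in KO and 81.7 Mb in WT. KO covered 12.4 Mb that WT did not, of which 44.1% lay beyond the outer edges of the WT peaks and the rest filled gaps between them. WT covered 3.34 Mb that KO did not. The 2 changes ran in opposite directions within domains, with a Pearson r of -0.40 across the 9426 domains, which share their libraries and are not replicates. Since the listed fold is a mean over the peak, a peak called longer tends to have a lower fold. The 2 changes are therefore not separate observations, and a negative r can follow from the measure. With KO peaks under the WT floor left out, the median log2 change of width was 0.12.

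The shift in covered bases was largest at domains of middling size. Its median log2 KO/WT was 0.08 for the 1443 domains under 1 kb, 0.20 for the 1298 domains of 2 to 5 kb, and 0.07 for the 261 domains over 50 kb. The shift in enrichment ran between -0.14 and -0.10 in every width class. The 2 widest domains were nearly the same in both genotypes. A 275 kb domain at chr15:102691076-102965980 had a fold of 14.0 in KO and 14.6 in WT, and was covered over 273950 bp in KO and 269303 bp in WT. A 272 kb domain at chr11:95980180-96252206 had a fold of 14.5 in KO and 16.1 in WT, and was covered over 269229 bp in KO and 267519 bp in WT. A 256 kb domain at chr16:29998907-30254771 gained the most covered length, with 250459 bp in KO and 220782 bp in WT, at a fold of 5.63 in KO and 6.58 in WT.

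Few domains departed from the general shift. A domain was counted as changed when its log2 KO/WT lay at least 1.5-fold from the median. By the highest fold, 52 domains (0.552%) were higher in KO and 178 (1.89%) were lower. By covered bases, 684 (7.26%) were wider in KO and 172 (1.82%) were narrower. When the fold was averaged over the length of all listed peaks in a domain, 23 domains were higher and 70 were lower. Only 18 were higher and 45 were lower by both measures. In a domain with 1 listed peak per genotype the 2 measures are the same value, so their agreement is built in. In all 18, and in most of the 45, the 2 measures were equal in both genotypes, so the second measure adds no check there. The 18 were all short, the widest being 2.49 kb, and 8 of them held a DLX interval. Of the 45, 2 were wider than 10 kb, 9 lay on chromosome 2 and 14 held a DLX interval. Of all 9426 strong domains, 29.8% held a DLX interval and 8.54% lay on chromosome 2.

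**Figure D1:**
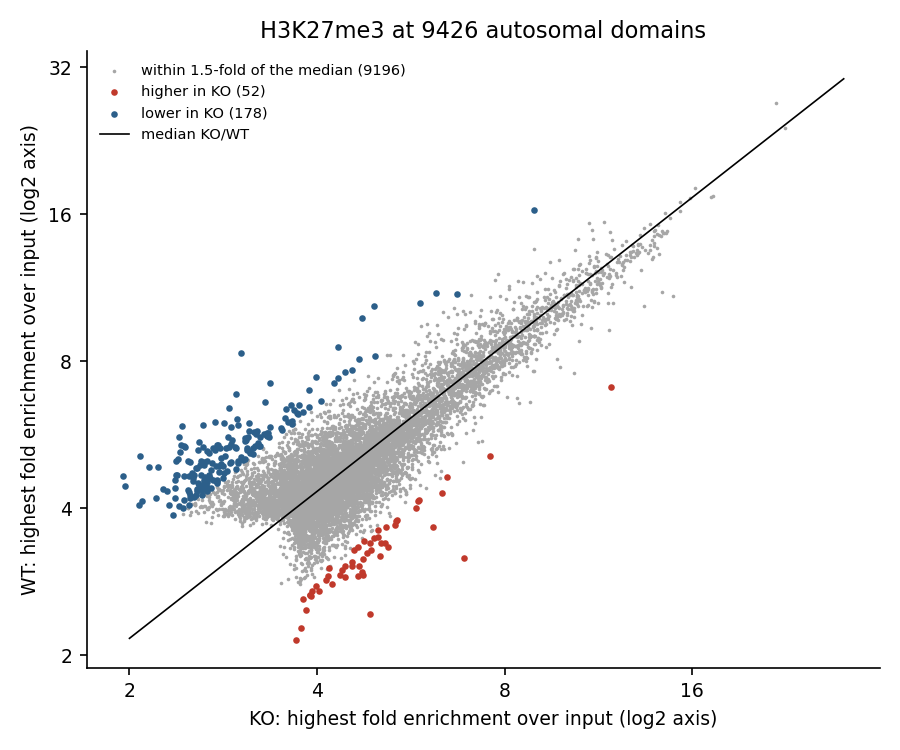
Highest fold enrichment over input of H3K27me3 in KO (horizontal, log2 axis) and in WT (vertical, log2 axis) at 9426 strong autosomal domains, 1 point per domain. The cloud follows the line of the median KO/WT ratio of 0.923, with 52 domains higher and 178 lower in KO by at least 1.5-fold around it.

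The domains furthest above the median owed their place to single peaks inside them. The domain at chr17:33530906-33543341 had a fold of 6.89 in KO and 3.16 in WT, a log2 difference from the median of 1.24. Averaged over its length, that difference was 0.14. The domain at chr11:26278188-26287500 had a fold of 4.86 in KO and 2.43 in WT, the one at chr19:47939884-47952489 had 3.70 in KO and 2.15 in WT, and the one at chr3:62309863-62314463 had 6.13 in KO and 3.65 in WT. A 53.8 kb domain at chr8:86532361-86586173, had 11.9 in KO and 7.08 in WT. Averaged over length, the domains on chromosomes 11, 3 and 8 lay slightly below the median, at -0.017, -0.051 and -0.051, and the one on chromosome 19 at 0.07. In none of the 5 did the mean over the domain differ as much as the highest peak did.

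Those furthest below the median were mixed. The domain at chr19:45719018-45739076 had a fold of 3.03 in KO and 8.32 in WT, yet it was covered over 18426 bp in KO and 10558 bp in WT. At chr4:118845917-118861375 the fold was 2.08 in KO and 5.12 in WT, and a 17.2 kb domain on chromosome 18 had 2.43 in KO and 5.89 in WT. Averaged over length these 3 differed from the median by -0.21, -0.12 and 0.00 on the log2 scale. The other two held under that measure. At chr2:77797207-77801974 the fold was 1.95 in KO and 4.66 in WT, and the covered length was 1517 bp in KO and 4768 bp in WT. At chr6:115971958-115972500, a domain of 543 bp, the fold was 2.4006 in KO and 5.601 in WT. Its fold averaged over length was the same value in each genotype, so that measure adds no check there.

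The other 3 marks gave a scale for these shifts, each measured at its own shared strong domains. The highest fold of H3K27ac had a median log2 KO/WT of -0.10 over 9036 domains, that of H3K4me3 0.11 over 23720, and that of H3K4me1 0.04 over 47388. Covered bases had a median of 0.10 for H3K27ac, 0.06 for H3K4me3 and 0.04 for H3K4me1. H3K27me3 thus had the largest median change in both measures, but H3K27ac, the active mark on the same residue, shifted the same way and nearly as far. Whether depth or ChIP efficiency moved these libraries was not tested.

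**Figure D2:**
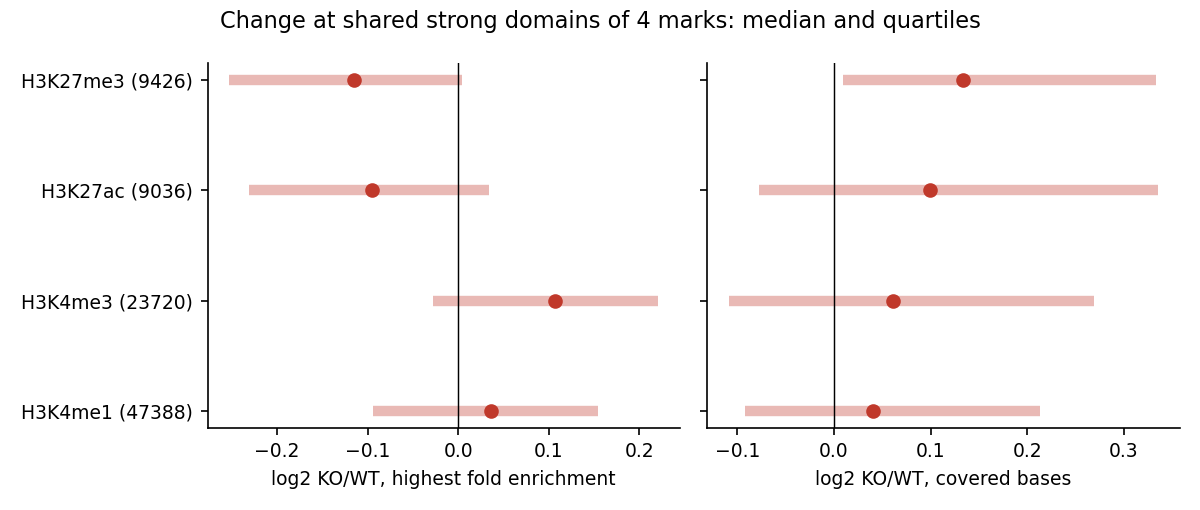
Log2 KO/WT of the highest fold enrichment (left) and of covered bases (right) at shared strong domains of 4 histone marks, with the number of domains in brackets; dots are medians and bars span the quartiles. H3K27me3 has a median of -0.11 for enrichment and 0.13 for covered bases, and H3K27ac lies beside it at -0.10 and 0.10.

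The largest drop in H3K27me3 coverage in KO was on chromosome 2, the chromosome of Dlx1 and Dlx2 in the RefSeq gene table. WT had a single peak of 47391 bp at chr2:71352559-71399949 with a fold of 8.56 and a −log10 q of 21.7. In KO 2 peaks of more than 3 kb remained there, one of 12440 bp with a fold of 3.12 and one of 3259 bp with a fold of 4.32, and 17709 bp were covered in all. This was the most covered length lost by any strong domain. The fold averaged over length was 3.21 in KO and 8.56 in WT. No mm9 annotation was used here, so no gene name is given to the domain.

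The loss fell into 2 stretches that differed in the other marks. The first, chr2:71368450-71384038, spans 15589 bp. In KO it had 0 bp of listed H3K27me3, 0 bp of H3K4me1, 232 bp of H3K27ac and 338 bp of H3K4me3, while in WT each of the 4 marks covered all 15589 bp. It holds 11 DLX intervals, of which 3 have a DLX1 peak, 11 a DLX2 peak and 3 a DLX5 peak. Every mark was thus missing together from this stretch in KO, and absence of DNA and absence of the marks cannot be told apart from peak lists. The second, chr2:71387298-71399949, spans 12652 bp and holds 0 DLX intervals. In KO it had 0 bp of H3K27me3 while H3K27ac, H3K4me3 and H3K4me1 each covered all 12652 bp. In WT H3K27me3 covered all of it, and the other marks covered 4752, 1858 and 3346 bp. Here listed H3K27me3 was absent in KO while the other 3 marks covered more of the stretch in KO than in WT, where they lay beside H3K27me3 over part of it. These were the longest WT stretches without any listed KO peak inside a strong WT peak, and the next, on chromosome 10, was 3560 bp. The longest KO stretch without WT was 7339 bp, at chr6:127954079-127961417.

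The RNA libraries bear on the targeted genes. Dlx1 had 21.3, 22.6, 24.2 and 26.3 CPM (counts scaled to a common library total) in KO embryos, against 117, 121, 129 and 126 CPM in WT embryos. Its log2 change was -2.403 (SE 0.09, edgeR adjusted p = 1.2e-06). Dlx2 had 1.06, 1.01, 1.52 and 1.51 CPM in KO, against 18.2, 15.3, 21.9 and 28.8 CPM in WT, a log2 change of -4.11 (SE 0.24, edgeR adjusted p = 9.9e-06). Both genes fell in all 4 KO embryos with no overlap between genotypes. The table has 1 row per gene, so it does not show which exons the remaining reads come from, and without a stated strand setting reads of antisense genes at the Dlx pairs cannot be told apart.

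The largest cluster of regions with higher H3K27me3 in KO was on chromosome 6, where H3K27ac and H3K4me3 were lower. The authors' deposited table lists 661 autosomal regions as higher in KO, and 21 of them lie within 69.6 kb at chr6:6787170-6856797. The cluster was chosen for this number, so its values are a description. The main H3K27me3 peak there was 51639 bp wide with a fold of 14.9 and a −log10 q of 54.4 in KO, against 45907 bp, 10.9-fold and 30.3 in WT. H3K27ac in the cluster reached a fold of 2.37 in KO and 6.03 in WT, and its strong peaks covered 0 kb in KO and 38.0 kb in WT. H3K4me3 reached 6.76 in KO and 12.5 in WT, and its strong peaks covered 30.2 kb in KO and 47.5 kb in WT. H3K4me1 went the other way in height, with a highest fold of 4.35 in KO and 3.47 in WT, while its listed peaks covered 23.9 kb in KO and 43.9 kb in WT. The cluster holds 5 DLX1, 14 DLX2 and 3 DLX5 intervals at e13.5. Of the regions inside it that differ in the authors' deposited tables, none for H3K27ac or H3K4me3 is higher in KO, while 3 for H3K27ac and 4 for H3K4me3 are higher in WT.

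The RefSeq gene table places Dlx5 and Dlx6, which encode relatives of DLX1 and DLX2, on chromosome 6. Dlx5 had 0.353, 0.579, 0.415 and 0.736 CPM in KO embryos, against 4.62, 4.86, 5.16 and 6.63 CPM in WT embryos (log2 change -3.35, SE 0.24, edgeR adjusted p = 4.3e-05). Dlx6 had 1.95, 2.48, 2.42 and 2.64 CPM in KO, against 12.2, 15.01, 16.8 and 15.8 CPM in WT (log2 change -2.67, SE 0.15, edgeR adjusted p = 7.7e-06). Both fell in all 4 KO embryos. Which genes lie inside the cluster was not determined here.

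**Figure D3:**
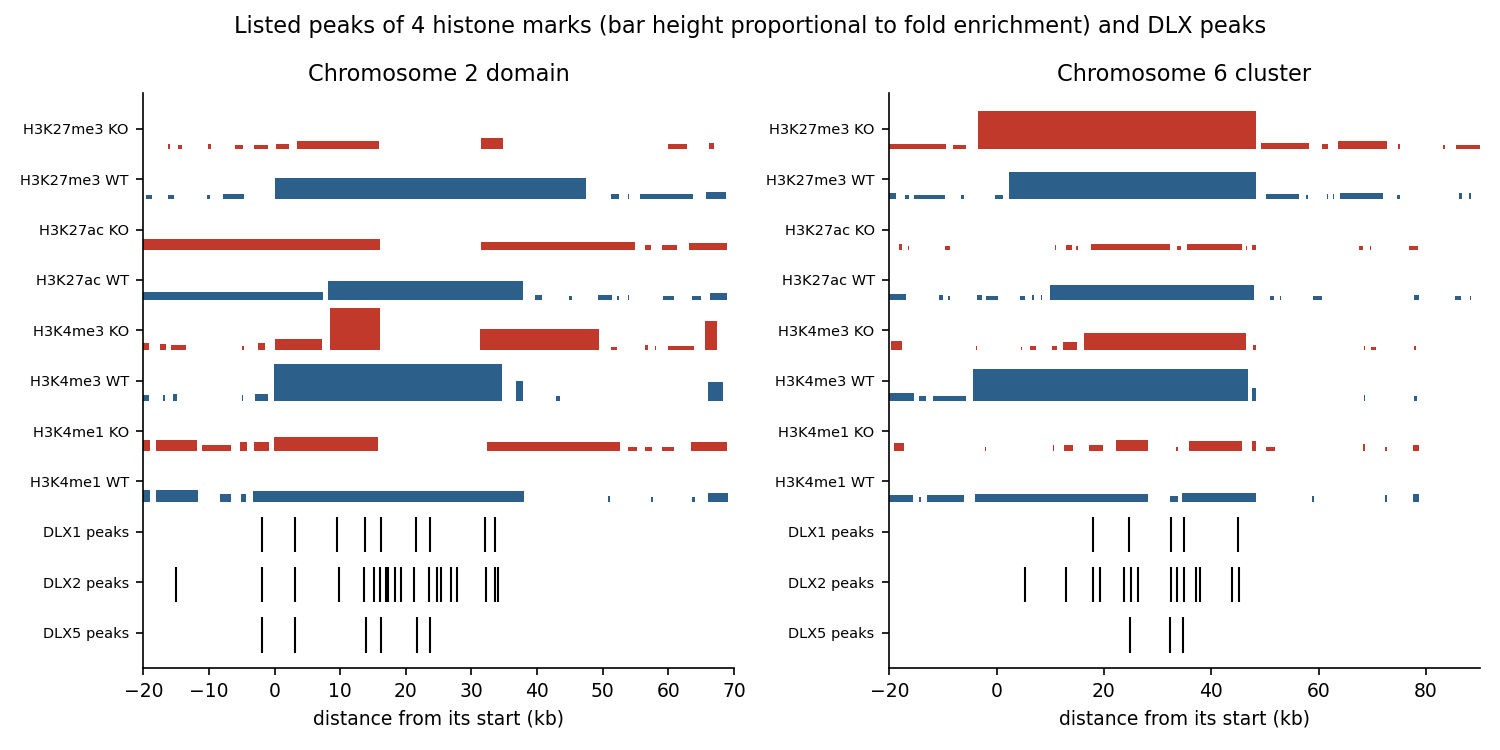
Listed peaks of 4 histone marks in KO (red) above WT (blue), with bar height proportional to fold enrichment over input, and DLX1, DLX2 and DLX5 peaks as ticks, against distance in kb from the start of the chromosome 2 WT domain (left) and of the chromosome 6 cluster (right). On the left all 4 marks are nearly absent in KO over the 15589 bp between 15.9 and 31.5 kb. On the right H3K27me3 is taller in KO (14.9 against 10.9 in WT) and H3K27ac and H3K4me3 are lower.

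Other clusters of differing regions moved in step with the other marks or without them. The next KO-higher cluster, 20 regions within 121 kb at chr17:36247454-36368315, had strong H3K27me3 over 94.8 kb in KO and 41.3 kb in WT. Its height ran the other way, with a highest fold of 5.45 in KO and 7.30 in WT, and its mean fold was 5.07 in KO and 5.16 in WT. The authors' deposited tables give 8 H3K4me3 and 3 H3K4me1 regions in it as higher in KO and 0 of either as higher in WT. It holds 1 DLX1, 1 DLX2 and 1 DLX5 interval. Among the 445 autosomal regions listed as higher in WT, 32 lay within 441 kb at chr7:138606476-139047971, where strong H3K27me3 covered 267 kb in KO and 336 kb in WT, with a highest fold of 13.6 in KO and 13.3 in WT and a mean fold of 5.51 in KO and 6.17 in WT. A cluster of 19 at chr17:27427502-27566666 also held 14 H3K27ac and 14 H3K4me1 regions higher in WT and 0 of either higher in KO. H3K27me3 in it reached a fold of 4.23 in KO and 3.72 in WT, with a mean fold of 2.44 in KO and 3.26 in WT. A cluster of 16 at chr2:77721430-77833138 also held 15 H3K27ac regions higher in WT and 0 higher in KO. This last stretch of 112 kb carried 45 DLX1, 61 DLX2 and 89 DLX5 intervals, the last out of 2913 DLX5 intervals on all autosomes. It is also where one of the domains furthest below the median lies. Whether the genomes of the 2 libraries differ in sequence or copy number at such clusters was not tested.

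Differing regions were unevenly spread over chromosomes. Regions of the authors' deposited table that differ in either direction came to 21.1 per 100 strong domains on chromosome 2 and to 26.7 on chromosome 17, against a median of 10.7 over the autosomes other than chromosome 2. Chromosome 2 holds 8.54% of strong domains, but 96 of the 445 regions higher in WT (21.6%) and 25 of the 178 domains with lower enrichment (14.0%). Its share of regions higher in KO was 74 of 661 (11.2%). Neighbouring regions of one locus count separately here. Of the regions higher in WT, 1 cluster holds 16 of the 96 on chromosome 2 and 1 holds 32 of the 55 on chromosome 7. On chromosome 17, clusters of 19 and 11 are among the 66. Between 70 and 80 Mb of chromosome 2, which takes in the lost domain, the table has 8 regions higher in KO and 38 higher in WT. The general shift in enrichment was close on all chromosomes, since its median log2 KO/WT ran between -0.13 and -0.09 over the 19 autosomes. That of covered bases varied more, from 0.09 on chromosome 17 to 0.17 on chromosome 1. Off chromosome 2, 47 domains were higher in KO and 153 (1.77%) were lower, so most of the changed domains lay elsewhere.

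**Figure D4:**
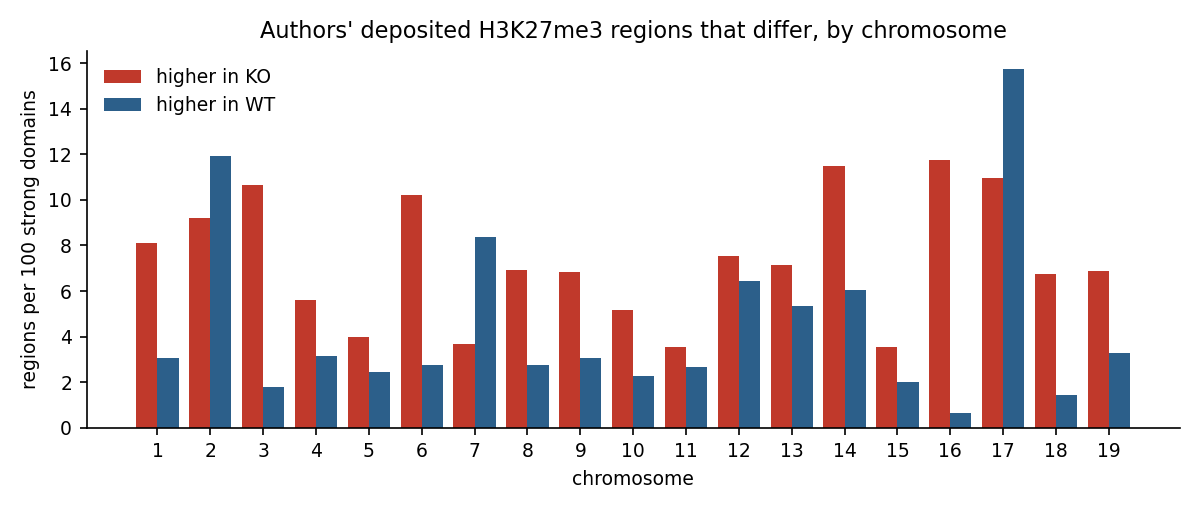
Regions of the authors' deposited H3K27me3 comparison that are higher in KO (red) or higher in WT (blue), per 100 strong domains of each autosome. Chromosomes 2, 7 and 17 stand out for regions higher in WT, with 96, 55 and 66 regions. Neighbouring regions of one locus count separately, and 1 cluster holds 32 of the 55 on chromosome 7.

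The regions that differ in the authors' deposited table are short, and most overlapped no strong WT peak of a given active mark. Those higher in KO had a median width of 473 bp and covered 0.388 Mb in all, and those higher in WT had a median width of 533 bp and covered 0.345 Mb, against 30133 common regions over 55.6 Mb. A strong WT H3K27ac peak overlapped 8.47% of regions higher in KO, 6.74% of regions higher in WT and 27.0% of common regions. For strong WT H3K4me3 the shares were 21.9% of regions higher in KO, 15.96% of regions higher in WT and 50.8% of common regions. For strong WT H3K4me1 they were 33.6% of regions higher in KO, 26.3% of regions higher in WT and 46.6% of common regions. A DLX interval overlapped 7.41% of regions higher in KO, 7.42% of regions higher in WT and 11.7% of common regions. The common regions are longer, with a median of 875 bp, and per Mb they hold 78.2 DLX intervals, against 137 in regions higher in KO and 145 in regions higher in WT. With a 1 bp overlap, DLX intervals reaching over an edge also count, so counts per Mb run high in short regions. The 2 measures thus point in opposite ways, and neither is free of region width. One region higher in WT, chr2:71364449-71384488, takes in the 15589 bp stretch that holds 11 DLX intervals.

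Strong H3K27me3 covered about the same length of WT-acetylated chromatin in KO as in WT. Of 8631 strong WT H3K27ac peaks, 4284 (49.6%) touched strong H3K27me3 in KO and 4775 (55.3%) did so in WT. Measured in bases, strong H3K27me3 covered 9.27 Mb of these peaks in KO and 9.25 Mb in WT, a ratio of 1.00, against a ratio of 1.18 outside them. For 22803 strong WT H3K4me3 peaks the counts were 8507 (37.3%) in KO and 9001 (39.5%) in WT, with a ratio in bases of 1.02 inside and 1.26 outside. Over WT H3K4me1 the ratio in bases was 1.06 inside and 1.21 outside. The wider coverage in KO therefore lay mainly away from WT acetylated and H3K4-methylated ground. The direction of the count depends on the overlap asked for. With at least 50% of a peak covered, the shares were 26.2% in KO and 25.2% in WT for H3K27ac, and 22.0% in KO and 21.2% in WT for H3K4me3. With all listed H3K27me3 peaks they were 98.3% in KO and 97.5% in WT for H3K27ac, and 87.6% in KO and 83.4% in WT for H3K4me3. In bases, all listed H3K27me3 covered 20.7 Mb of the H3K27ac peaks in KO and 17.7 Mb in WT. That is a ratio of 1.17, against 1.42 outside them. For H3K4me3 the ratio in listed bases was 1.11 inside and 1.45 outside.

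The ratio of strong H3K27me3 bases, KO over WT, was close in regions with strong H3K27ac in WT only, in KO only and in both. In the 1031 regions strong in WT only, strong H3K27me3 touched 407 (39.5%) in KO and 432 (41.9%) in WT, with a ratio of 1.04 in bases. In the 655 regions strong in KO only it touched 194 (29.6%) in KO and 207 (31.6%) in WT, with a ratio of 1.07. In the 7350 regions strong in both it touched 3927 (53.4%) in KO and 4383 (59.6%) in WT, with a ratio of 1.03.

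Co-occurrence with active marks was the rule at H3K27me3 domains in both genotypes. Strong H3K4me3 lay in 96.3% of the 9426 domains in KO and in 96.3% in WT, and strong H3K27ac in 54.9% in KO and 57.4% in WT. The 2 marks of lysine 27 cannot share a histone tail, and neighbouring nucleosomes, alleles and cells of a mixed tissue cannot be told apart here. Among the 178 domains lower in KO, H3K27ac was strong in 125 (70.2%) in KO and 124 (69.7%) in WT. Among the 52 higher in KO it was strong in 38 (73.1%) in KO and 42 (80.8%) in WT.

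DLX-bound sites lay inside strong H3K27me3 in about the same share in KO and WT. The DLX1, DLX2 and DLX5 lists merged into 19757 intervals, of which 3534 (17.9%, Wilson 95% interval 17.4 to 18.4) lay in strong H3K27me3 in KO and 3508 (17.8%, 17.2 to 18.3) in WT. These intervals cover counting error only. Between the genotypes 562 DLX intervals were in a strong peak in KO only and 536 in WT only. With all listed peaks 47.2% lay in H3K27me3 in KO and 39.3% in WT, a ratio of 1.20 in intervals touched. The ratio of 1.401 for all listed H3K27me3 is of covered bases. That is another measure, so these ratios cannot be ranked. By factor the strong shares were 14.0% in KO and 14.3% in WT for DLX1, 18.7% in KO and 18.4% in WT for DLX2, and 18.8% in KO and 19.4% in WT for DLX5. Sites with all 3 factors, 2054 in number, had 15.9% in KO and 16.3% in WT. Where a DLX interval lay in listed H3K27me3 of both genotypes, the median log2 KO/WT of the peak's fold was -0.08. Over domains built from all listed peaks the median was -0.13, but that counts each domain once by its highest fold, so these values are not of one kind.

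Split by the state of H3K27ac or WT H3K4me3, the share of DLX sites in strong H3K27me3 moved in both directions. At the 14259 DLX intervals with no strong H3K27ac in either genotype, strong H3K27me3 held 1272 (8.92%) in KO and 1138 (7.98%) in WT, a ratio of 1.12. At the 11299 outside strong WT H3K4me3 it held 470 (4.16%) in KO and 387 (3.43%) in WT, a ratio of 1.21. At the 525 where H3K27ac was strong in WT only it held 125 (23.8%) in KO and 148 (28.2%) in WT, a ratio of 0.845. DLX sites with strong acetylation in WT only thus had, as a class, no more strong H3K27me3 in KO. The ratios of 1.12 and 1.21 are of intervals touched. In bases the ratio was 1.16 for all strong H3K27me3 and 1.26 outside WT H3K4me3, which is another measure.

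**Figure D5:**
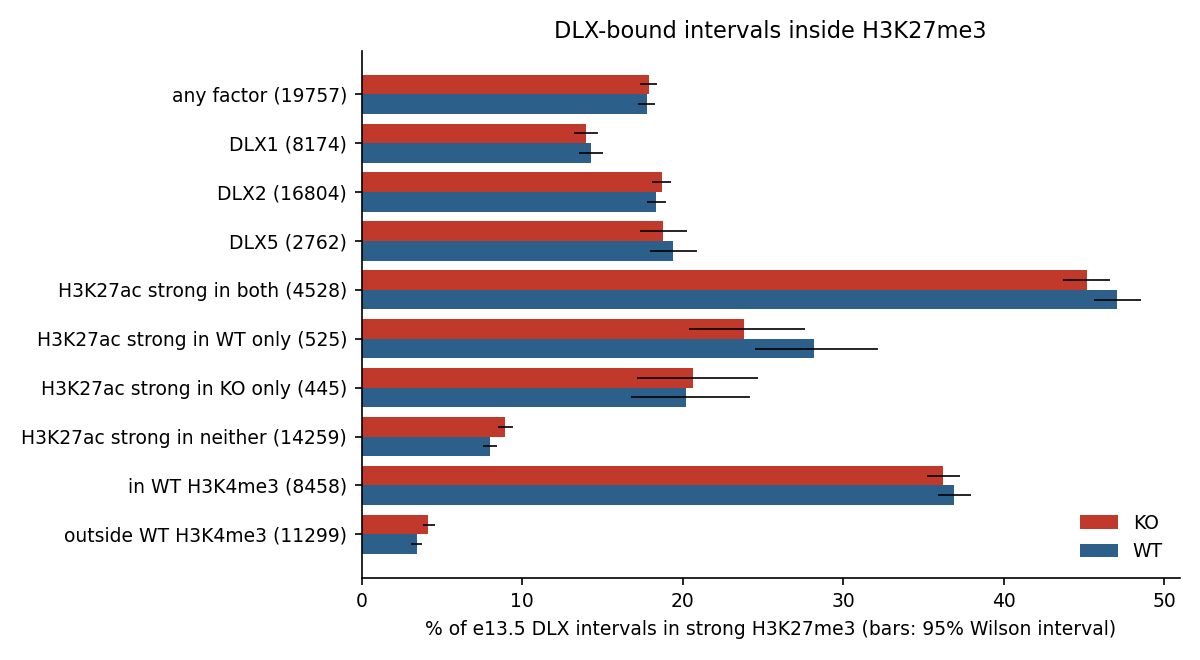
Percent of e13.5 DLX intervals that lie in strong H3K27me3 in KO (red) and in WT (blue), for all intervals, for each factor and by the state of H3K27ac and H3K4me3, with 95% Wilson intervals that cover counting error only and the number of DLX intervals in brackets. KO and WT bars are of nearly equal length for all intervals (17.9% in KO, 17.8% in WT), and the shares are far lower outside WT H3K4me3.

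Seen from the domains, a DLX interval lay in 2811 of 9426 (29.8%). Enrichment was higher in KO in 22 of them (0.783%) and lower in 62 (2.21%). Among the 6615 domains without a DLX interval it was higher in 30 (0.454%) and lower in 116 (1.75%). The median log2 KO/WT of enrichment was -0.11 with and -0.12 without, and that of covered bases 0.12 with and 0.14 without. The 2 groups of domains thus shifted nearly alike, and the extra changed domains among those with DLX went in both directions.

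No listed gene that writes, reads or erases the mark passed the RNA test. PRC2 is built from EZH2 or EZH1, EED, SUZ12 and the histone-binding subunits RBBP4 and RBBP7. Ezh2 had 249.6, 242, 212 and 227 CPM in KO embryos, against 249.2, 248, 230 and 219 CPM in WT embryos (log2 change -0.04, SE 0.09, edgeR adjusted p = 1.00). Suz12 had 323, 344, 260 and 276 CPM in KO, against 343, 333, 293 and 259 CPM in WT (log2 change -0.05, SE 0.13). Eed had 54.4, 56.8, 50.1 and 56.5 CPM in KO, against 53.5, 51.7, 52.9 and 48.9 CPM in WT (log2 change 0.06, SE 0.09). The genotypes overlapped for each of the 6 core genes. The log2 change was -0.03 for Ezh1 (SE 0.15), -0.06 for Rbbp4 (SE 0.16) and -0.09 for Rbbp7 (SE 0.09).

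Both H3K27 demethylases also overlapped between genotypes. Kdm6a had 75.6, 100.3, 68.3 and 96.9 CPM in KO embryos, against 90.7, 69.8, 62.6 and 88.4 CPM in WT embryos (log2 change 0.11, SE 0.17). The Y-linked gene Kdm5d had 85.3, 0.103, 96.9 and 0.233 CPM in KO, against 0.0684, 95.2, 86.2 and 0.124 CPM in WT. Where Kdm5d was nearly absent, Kdm6a had 100.3 and 96.9 CPM in KO and 90.7 and 88.4 CPM in WT. In the other libraries Kdm6a had 75.6 and 68.3 CPM in KO and 69.8 and 62.6 CPM in WT. A difference within either sex was not tested. Kdm6b had 11.8, 10.53, 13.8 and 14.1 CPM in KO, against 12.4, 14.6, 14.7 and 15.4 CPM in WT (log2 change -0.20, SE 0.12). Neither passed the test (edgeR adjusted p = 1.00 for Kdm6a and 0.93 for Kdm6b).

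Across all 90 tested genes of the Polycomb and histone modifier lists, 0 rose and 0 fell by edgeR, beside 0.586% of 14510 genes that rose and 0.896% that fell. By DESeq2 also 0 were called, and 1 gene, the PRC2 accessory factor Phf1, had an unadjusted p under 0.05 (log2 change -0.25, SE 0.11, edgeR adjusted p = 0.65). With the replicate number as a block 2 were called, Scml4 (log2 change 0.32, blocked adjusted p = 0.030), a PRC1 list member, and Chd3 (log2 change -0.39, blocked adjusted p = 0.0052), a NuRD remodeller subunit in the H3K27 acetylation list. Groups of 4 did not overlap for 0 of the 90 genes, against 6.02% of all genes. The median log2 change was -0.01. In simulated counts of the same depth the test recovered 34.3% of the 1.5-fold changes and 91.0% of the 2-fold changes put in, so a smaller change could be missed.

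As a check of the tissue, all 10 eminence markers were detected in RNA. Of these, 1 rose and 4 fell in KO. Gad2, which makes the neurotransmitter GABA, had 52.2, 60.1, 59.8 and 54.4 CPM in KO embryos, against 159, 165, 153 and 151 CPM in WT embryos (log2 change -1.49, edgeR adjusted p = 7.7e-06). Gad1, Ebf1 and Lhx6 fell too, with log2 changes of -1.347, -1.352 and -0.85 (edgeR adjusted p = 0.00045, 0.00025 and 0.013). Lhx6 missed the threshold without KO replicate 1 or WT replicate 3, with an edgeR adjusted p of up to 0.054, and 1 KO embryo stood apart in Gad1 with 65.0 CPM against 42.4 to 43.5 CPM in the other KO embryos. Gsx1, a progenitor factor, had 3.65, 2.09, 3.18 and 2.98 CPM in KO, against 0.214, 0.149, 0.256 and 0.373 CPM in WT (log2 change 3.59, edgeR adjusted p = 9.1e-05). Of 8 pallial markers and of 9 blood, vessel and microglia markers, 0 were called by edgeR. The summed pallial level ran from 461 to 615 CPM in KO and from 409 to 519 CPM in WT, and the summed blood, vessel and microglia level from 1518 to 2199 CPM in KO and from 1813 to 2036 CPM in WT. The eminence sum ran from 410 to 501 CPM in KO and from 628 to 645 CPM in WT. The part of these marker levels in the H3K27me3 values was not tested.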

How the data were processed

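H3K27me3, H3K27ac, H3K4me3 and H3K4me1 peak lists of KO and WT tissue, DLX peak lists and RNA counts at e13.5 were used as deposited. Per the labels' protocols, histone ChIP was native, with micrococcal nuclease. Per the submitters' processing notes the tools include Trim Galore, BWA 0.7.16a, SAMtools, MACS2, deepTools, bcl2fastq and STAR 2.4.2a, with build mm9. In the deposited lists each peak has a fold enrichment (a linear ratio over input) and a −log10 q. The lowest −log10 q in the H3K27me3 lists was 0 in KO and 0.104 in WT, so they include very weak peaks. Their lowest fold was 1.503 in KO and 1.696 in WT. The likelihood ratio score of each differing region is the authors' own, per the file headers. Counts per gene were deposited by the authors without normalization, beside log2 fold changes and p-values of the authors' own comparison, which were not used; neither the counting tool nor its strand setting is named in the sources used here.

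Peaks on chromosomes 1 to 19 were merged over gaps of up to 1000 bp with Python 3.11.15. Overlap means 1 bp. Coordinates are mm9, 1-based. Differences between peak lists carry no test. Counts (14.4 to 117 M per library; 1 library per embryo) entered a quasi-likelihood fit in edgeR 4.0.16 with TMM scaling, filterByExpr (minimum count 10) and a Benjamini-Hochberg threshold of 0.05 over 14510 genes; DESeq2 1.42.0 was an alternative. Replicate numbers were shared between genotypes, and same-numbered libraries deviated together (correlations of 0.15, 0.29, 0.37 and 0.48; those numbered 1 and 2 correlated more with another number, at up to 0.39 and 0.60), so a fit with the number as a block was also run. Both steps were tested on simulated data. Alternatives were other −log10 q minimums, gaps, overlap rules, scalings and filters, and leaving out each RNA library. The domains named are the 5 furthest above and the 5 furthest below the median change, together with the widest and the most changed ones and clusters, the last chosen after their values were seen; genes named are the PRC2 core, the H3K27 demethylases and list genes past 0.05. The members and lists were chosen with earlier results of these data known. Without a genome or annotation of mm9, peaks are given without genes or sequence, and RNA of genes with H3K27me3 at their start was not analysed here. RefSeq (GRCm38) gave only the chromosome of the Dlx genes.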

Additional observations from a re-analysis of the deposited data

Results flagged for a closer look

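Gad1 RNA was 65.0 CPM in 1 of the 4 KO embryos, against 42.4, 42.8 and 43.5 CPM in the others, so this library stood far from the rest of its group. All 4 stayed below the WT embryos, which had 114 to 124 CPM. With groups of 4, chance flags about 1 in 20 groups, and 34 groups were looked at.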

How the results depend on the processing

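With 1 library per genotype no H3K27me3 difference has a replicate check, and enrichment and width in the 2 lists cannot be told apart from depth or ChIP efficiency. 3 of the alternatives were chosen after seeing the data, namely leaving out chromosome 2, raising the floor of the KO list, and not counting weak peaks of the other genotype. KO-only and WT-only domains numbered 33 and 26 at a −log10 q of at least 2, 79046 and 22090 with all listed peaks, and 907 and 1501 with weak peaks of the other genotype not counted. They stayed at 0 and 0 at a −log10 q of at least 10, at both other gaps, and with the floor raised. The cause of the moves listed here was not tested beyond the alternatives' own construction.

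The median log2 KO/WT of enrichment was -0.11 at a −log10 q of at least 10, -0.13 with all listed peaks and -0.088 as a length-weighted mean, so it kept its sign under every alternative run. That of covered bases was 0.17 at a −log10 q of at least 2, 0.11 at a −log10 q of at least 10, 0.36 with all listed peaks, 0.12 with no gap merged, 0.26 with gaps of up to 5000 bp, and 0.12 with the KO floor raised. Domains with higher and lower enrichment numbered 173 and 400 at a −log10 q of at least 2, 12 and 54 at a −log10 q of at least 10, 347 and 539 with all listed peaks, and 23 and 70 as length-weighted means. Under length-weighted means the domains on chromosomes 11, 3 and 8 furthest above the median changed sign (-0.017, -0.051 and -0.051), as did the one on chromosome 18 furthest below it (0.0044).

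WT H3K27ac peaks touched by H3K27me3 came to 87.3% in KO and 88.7% in WT at a −log10 q of at least 2, 7.59% in KO and 8.83% in WT at a −log10 q of at least 10, 98.3% in KO and 97.5% in WT with all listed peaks, and 26.2% in KO and 25.2% in WT with at least 50% covered. For WT H3K4me3 peaks these were 62.8% in KO and 63.1% in WT, 13.9% in KO and 14.1% in WT, 87.6% in KO and 83.4% in WT, and 22.0% in KO and 21.2% in WT. KO minus WT thus changed sign with all listed peaks (0.834 points for H3K27ac, 4.17 for H3K4me3) and with at least 50% covered (0.985 and 0.882 points). Gap settings do not enter these overlaps. DLX intervals in H3K27me3 came to 30.3% in KO and 28.7% in WT at a −log10 q of at least 2, 6.66% in KO and 6.53% in WT at a −log10 q of at least 10, and 47.2% in KO and 39.3% in WT with all listed peaks. By summits they came to 17.6% in KO and 17.2% in WT, 0.42 points apart, against 0.13 points by intervals. Domains with a DLX interval came to 25.5%, 24.9% and 3.49% at those settings and to 37.9% with gaps of up to 5000 bp.

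With the replicate block, 1 modifier gene was higher and 1 lower, against 0 and 0 without it, and over all genes 322 rose and 313 fell, against 85 and 130. All other fits, including those without 1 library, kept 0 and 0. DESeq2 called 228 genes higher and 240 lower over all genes. Leaving out 1 library moved the sign of 4 uncalled PRC2 genes, whose log2 changes ranged from -0.168 to 0.0717 for Ezh1, from -0.0816 to 0.0148 for Ezh2, from -0.124 to 0.0301 for Suz12 and from -0.145 to 0.0448 for Rbbp4. The RNA of genes with H3K27me3 at their start was not run, for want of an mm9 annotation.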
